A study of Mus musculus with 10 samples.

Results

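The regions described here are the MyoD and Myf5 binding sites in the most GC-rich DNA of a mouse chromatin immunoprecipitation (ChIP-seq) study. Each deposited peak list sorts its peaks into 5 classes of GC content, and the members are the peaks of the highest class, over 55% GC. They were 1074 of 45015 MyoD peaks (2.39%) and 1831 of 93787 Myf5 peaks (1.95%), or 2905 of 138802 factor peaks in all. All cells were mouse embryonic fibroblasts of the genotype MyoD-/-; Myf5-/-, so no group, controls included, had either gene of its own. They were infected with lentivirus carrying MyoD, Myf5 or GFP, moved to differentiation medium 24 hours later and harvested after a further 20 hours. The lists comprise MyoD ChIP in cells with MyoD, Myf5 ChIP in cells with Myf5, histone H4 acetylation (H4Ac) in cells with GFP, MyoD or Myf5, and 2 mock ChIPs, in which the factor antibodies were used on cells with GFP. Chromatin was crosslinked for 11 minutes for the factor and mock ChIPs. For H4Ac it was digested for 18 minutes with 15 units of the nuclease MNase. Factor and H4Ac lists thus also differ in chromatin preparation, and whether this bears on the GC classes was not tested. MyoD and Myf5 were drawn down with different antibodies, so coverage is compared within a list only. Both factor lists cover 2 replicates together and every other group has 1 list, so no value below has a replicate error. All intervals are at 95%. They allow for counting error alone, and peaks close to each other share their surroundings and so are not independent. The promoter that drives the factors was not named in the labels, and peak lists hold no expression values with which the cell type could be checked.

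MyoD and its relative Myf5 belong to the basic helix-loop-helix transcription factors and set the skeletal muscle fate. They pair with E proteins and bind the short E-box motif, and their forced expression can turn fibroblasts towards muscle. Acetylated histone H4 is found at active promoters and enhancers and is laid down by acetyltransferases that factors such as MyoD can recruit. GC-rich stretches of mammalian genomes are dense in genes, and many promoters lie in CpG islands, where the dinucleotide CpG is frequent. These are general properties and were not measured here: positions are in the mm9 build, for which no sequence or annotation was used here.

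GC-rich sites were wider and taller than the rest of their lists, with a gradient across the classes. The median width of the GC-rich MyoD peaks was 730 bp (702 to 755), against 671 bp (668 to 674) in the other 4 classes together. The Myf5 medians were 903 bp (879 to 926) and 754 bp (752 to 757). Median maximum coverage, the authors' highest read pile-up in a peak, was 56 (53 to 59) against 49 (49 to 50) for MyoD and 68 (65 to 72) against 55 (55 to 56) for Myf5. As a percentile within its list, the median GC-rich peak stood at 57.5 for MyoD and 59.7 for Myf5, against 49.6 for the other classes in both lists. The authors' coverage cutoff was also higher in this class, at 30 for MyoD and 32 for Myf5, against 27 to 28 and 27 to 29 in the other classes. Once coverage was divided by the cutoff of its class, the difference in median percentile fell to 1.89 (-1.80 to 5.89) for MyoD and 2.12 (-0.508 to 5.65) for Myf5, and both intervals included 0. The next lower class, 50 to 55% GC, had median widths of 712 bp and 880 bp, and its width intervals overlapped those of the GC-rich class. The height range was broad, and the tallest GC-rich peaks reached a coverage of 971 for MyoD and 1800 for Myf5, below the list maxima of 2028 and 3723.

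GC-rich sites were spread unevenly over the chromosomes and lay close to other peaks. On chromosome 11, 134 of 2896 MyoD peaks (4.63%, 3.89 to 5.46) and 214 of 5924 Myf5 peaks (3.61%, 3.15 to 4.12) belonged to the class. On chromosome 17 the shares were 4.01% and 3.05%. The lowest MyoD share was on the X chromosome, 6 of 823 peaks (0.729%, 0.268 to 1.58), and the lowest Myf5 share on chromosome 3, 30 of 4917 (0.610%, 0.412 to 0.870). The median distance from a GC-rich MyoD peak to the nearest MyoD peak of any class was 3809 bp (3310 to 4148), against 8492 bp (8348 to 8654) for the other classes. For Myf5 it was 2542 bp (2437 to 2684) against 4462 bp (4423 to 4509). These distances fell from class to class with rising GC. The next lower class stood at 4795 bp (4615 to 5010) for MyoD and 2934 bp (2870 to 2999) for Myf5. Neighbouring peaks tended to share their class, as they did over the whole list. Of the neighbouring MyoD pairs under 500 bp apart that held a GC-rich peak on either side, both were GC-rich in 83 of 148 (56.1%). At 10000 to 50000 bp it was 56 of 729 (7.68%). Over all MyoD neighbours, whatever the class, 83.8% of pairs shared a class at the shorter distance and 49.8% at the longer. The GC-rich shares cannot be set against these, since a pair entered that count through either peak and mixed pairs lower its share. Joined across gaps of at most 10 kb, the MyoD members formed 789 runs, of which 600 were single peaks and the longest held 12. The Myf5 members formed 1211 runs, of which 829 were single and the longest held 13.

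**Figure D1:**
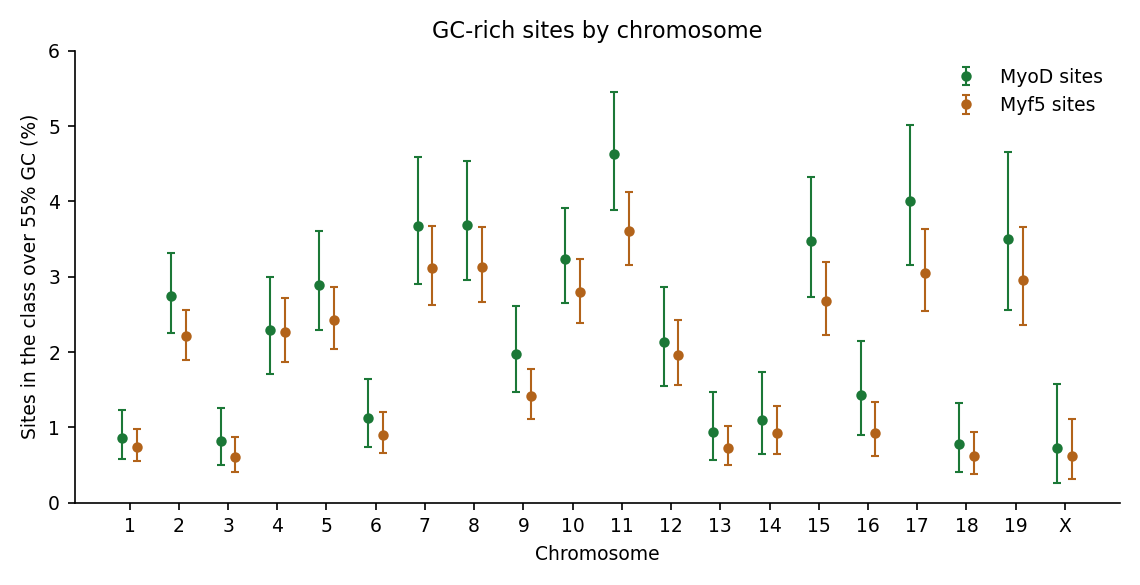
Share of each chromosome's peaks that fall in the class over 55% GC (y axis, percent) for MyoD and Myf5 sites by chromosome (x axis), with exact 95% intervals. Chromosome 11 was highest in both lists, at 4.63% and 3.61%, and chromosomes 1, 3, 13, 18 and X were below 1% in both.

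Nearly every GC-rich MyoD site was also a Myf5 site. A Myf5 peak overlapped 1058 of the 1074 by at least 1 bp (98.5%, 97.6 to 99.2), beside 97.5% of the whole MyoD list. The difference from the other classes was 1.04 percentage points (0.111 to 1.63), and the next lower class had the same share to within its error, 98.6%. In the reverse direction, 1010 of the 1831 GC-rich Myf5 sites had a MyoD peak (55.2%, 52.8 to 57.5), beside 45.9% of the whole Myf5 list. This was 9.44 points (7.13 to 11.7) above the other classes, and the share was higher on 20 of 20 chromosomes. The excess moved with strength: after the other classes were reweighted to the coverage percentiles of the GC-rich peaks it was -0.0847 points (-2.40 to 2.21), and after reweighting to their widths 0.963 points (-1.35 to 3.26).

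Strength ordered the sharing within the GC-rich class. The Myf5 list was cut by coverage into 10 parts of about equal size, and no GC-rich peak, the lowest of which had a coverage of 33, fell in the weakest. In the second part 6 of 110 GC-rich sites had a MyoD peak (5.45%, 2.03 to 11.5), in the fifth 57 of 211 (27.0%, 21.1 to 33.5), in the seventh 142 of 196 (72.4%, 65.6 to 78.6) and in the strongest 215 of 215 (100%, 98.3 to 100). The other classes ran from 7.04% in the second part to 99.96% in the strongest. The 1010 shared Myf5 members had a median coverage of 117.5 (111 to 124) and a median width of 1062.5 bp, and the 821 unshared ones 45 (44 to 46) and 741 bp. The 16 GC-rich MyoD sites without a Myf5 peak were weak too, with a median coverage of 36 (33 to 40) against 57 (53 to 59). Among the 1079 overlapping pairs that include a GC-rich MyoD peak, the Myf5 partner was GC-rich in 1032 (95.6%) and in the next lower class in the other 47. Coverage ranks in the 2 lists had a Spearman correlation of 0.736 over these pairs and 0.793 over the 43226 pairs of the other classes, given as a description since pairs share peaks and list depth.

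**Figure D2:**
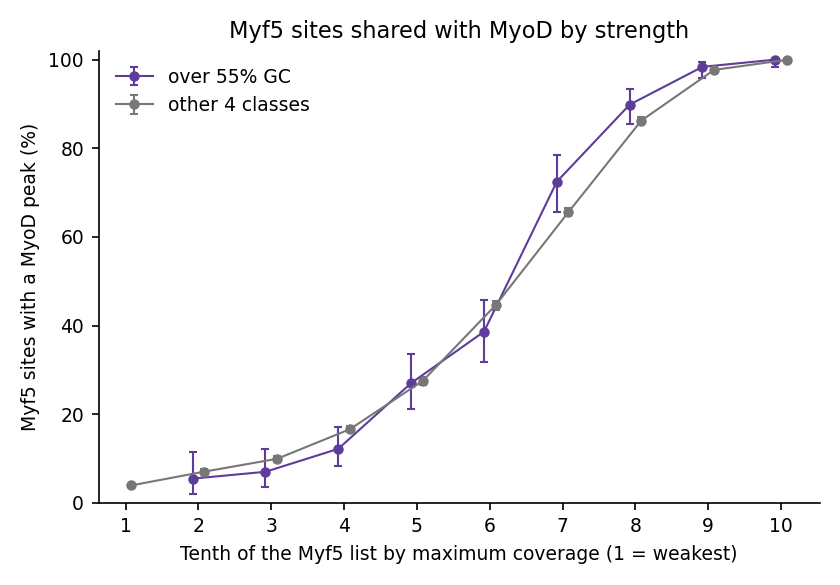
Share of Myf5 sites with an overlapping MyoD peak (y axis, percent) for 10 parts of the Myf5 list ordered by maximum coverage (x axis, 1 is weakest), for sites over 55% GC and for the other 4 classes, with exact 95% intervals. Both lines climb together, from 5.45% and 7.04% in the second part to 100% and 99.96% in the strongest; the GC-rich line has no point in the weakest part.

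The GC-rich sites carried H4Ac in cells without either factor more often than other sites did. In cells with GFP, an H4Ac peak overlapped 219 of the 1074 GC-rich MyoD sites (20.4%, 18.0 to 22.9), beside 14.4% of the whole list. The difference from the other classes was 6.17 points (3.84 to 8.70), with a higher share on 18 of 19 chromosomes that held at least 10 GC-rich sites. At Myf5 sites it was 327 of 1831 (17.9%, 16.1 to 19.7), beside 11.6% of the whole list, a difference of 6.40 points (4.70 to 8.23) and a higher share on 20 of 20 chromosomes. Against the next lower class alone, the Myf5 difference was 2.82 points and its interval excluded 0, and the MyoD difference was 1.91 points (-0.588 to 4.59).

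With a factor present the differences from the other classes were smaller in value. In cells with MyoD, 220 GC-rich MyoD sites had H4Ac (20.5%, 18.1 to 23.0), beside 18.6% of the list, a difference from the other classes of 1.95 points (-0.385 to 4.49). In cells with Myf5, 166 had it (15.5%, 13.3 to 17.8), beside 15.1% of the list, and the difference was 0.407 points (-1.66 to 2.72). GC-rich Myf5 sites had H4Ac at 316 sites in cells with MyoD (17.3%, 15.6 to 19.1), beside 13.6% of the list, and at 247 in cells with Myf5 (13.5%, 12.0 to 15.1), beside 11.9%. Those differences were 3.72 points (2.04 to 5.53) and 1.59 points (0.0873 to 3.25), and after reweighting to equal widths they were -0.720 points (-2.40 to 1.10) and -1.80 points (-3.31 to -0.139). From GFP to MyoD cells, the H4Ac share at MyoD sites of 40% GC or less went from 6.38% to 11.5%, while in the GC-rich class it went from 20.4% to 20.5%.

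**Figure D3:**
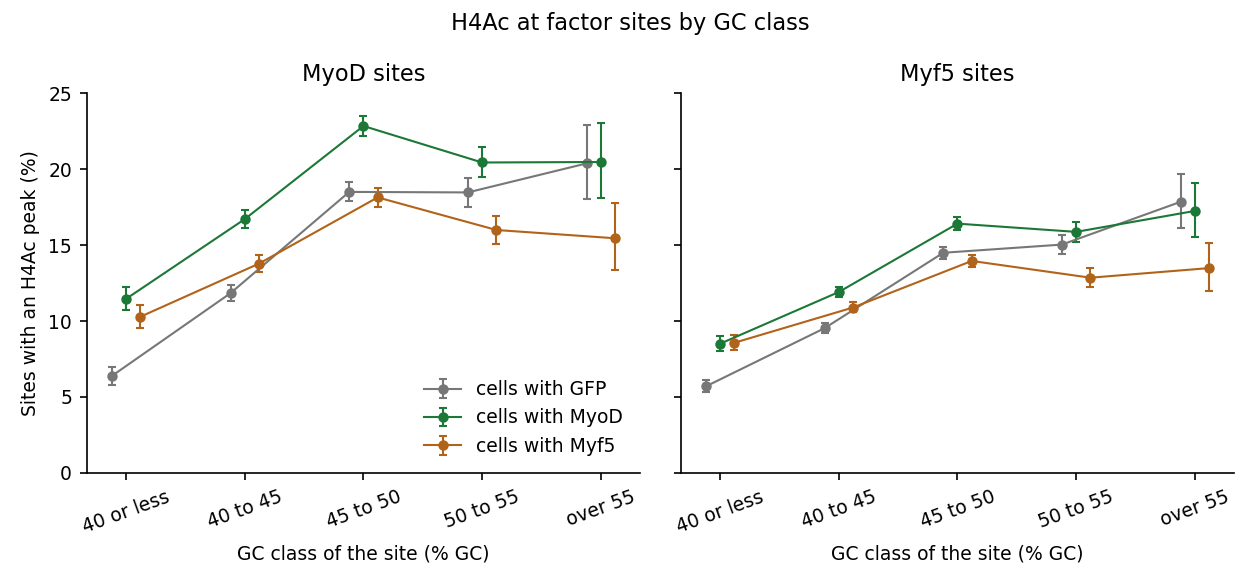
Share of MyoD sites (left) and Myf5 sites (right) that overlap an H4Ac peak (y axis, percent) by GC class of the site (x axis), in cells with GFP, MyoD or Myf5, with exact 95% intervals. At MyoD sites of 40% GC or less the GFP share, 6.38%, lies below both factor shares; over 55% GC it equals the share with MyoD within the intervals and lies above the share with Myf5, 15.5%.

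The ratio of sites that gained H4Ac to sites that lost it fell from class to class with rising GC. It was lowest in value in the GC-rich class as deposited and under 5 other overlap rules or H4Ac settings, except at MyoD sites with MyoD when only H4Ac peaks of at least 1.5 times their cutoff were kept (1.28, against 1.24 in the next lower class). A site is called gained here when it has an H4Ac peak with the factor and none with GFP, and lost in the opposite case; fewer cells with the mark and less of the mark per cell cannot be told apart. With MyoD, 44 of the 855 GC-rich MyoD sites without H4Ac in GFP cells gained it (5.15%, 3.76 to 6.85), beside 7% of the list. The difference from the other classes was -1.89 points (-3.21 to -0.182). Of the 219 with H4Ac in GFP cells, 43 lost it with MyoD (19.6%, 14.6 to 25.5), beside 12.4% of the list, a difference of 7.49 points (2.70 to 13.3). In the next lower class 5.85% (5.22 to 6.52) gained it and 15.1% (13.1 to 17.3) lost it, and both intervals overlapped those of the GC-rich class. Gains and losses were thus equal in number within counting error in the GC-rich class, at 1.02 gained per lost site. The ratio was 6.75, 4.42, 3.20 and 1.71 in the 4 lower classes, in order of rising GC. As a share of all changed sites, the gained sites had an interval that overlapped the one of the next lower class (50.6%, 39.6 to 61.5, against 63.0%, 58.6 to 67.4).

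In cells with Myf5 the balance tipped to loss. At GC-rich Myf5 sites, 30 of 1504 gained H4Ac with Myf5 (1.99%, 1.35 to 2.84), beside 3.03% of the list, and 110 of 327 lost it (33.6%, 28.5 to 39.0), beside 20.1%. The differences from the other classes were -1.05 points (-1.66 to -0.206) and 13.9 points (8.97 to 19.3), and the loss was more frequent on 13 of 13 chromosomes that held enough sites. The ratio of gained to lost sites was 0.273, after 4.07, 1.93, 0.815 and 0.476 in the 4 lower classes, and the loss was 5.91 points (0.577 to 11.6) above the next lower class alone. The gained share of that class, 2.34% (2.06 to 2.65), had an interval that overlapped the GC-rich one. GC-rich MyoD sites in the same cells had 22 gains (2.57%, beside 4.14% of the list) and 75 losses (34.2%, beside 19.9%). GC-rich Myf5 sites in cells with MyoD had 54 gains (3.59%, beside 4.18%) and 65 losses (19.9%, beside 14.4%).

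**Figure D4:**
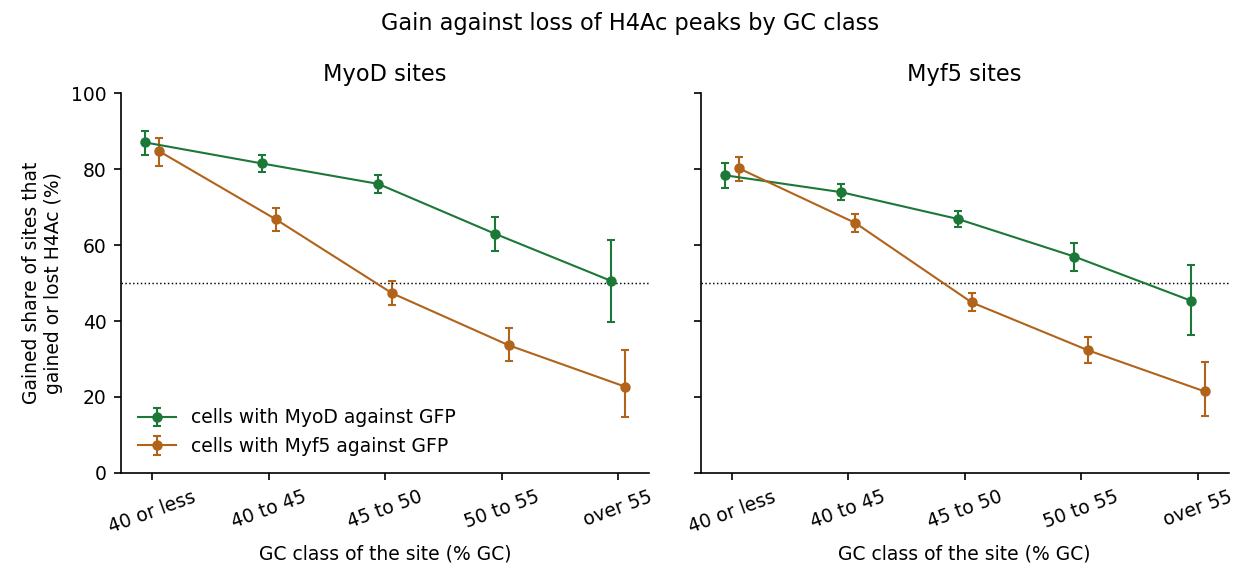
Gained sites as a share of all sites that gained or lost an H4Ac peak against GFP cells (y axis, percent) by GC class (x axis), for MyoD sites (left) and Myf5 sites (right), with exact 95% intervals and a dotted line at 50%. Every line falls with GC; over 55% GC it ends at 50.6% (39.6 to 61.5) for MyoD sites with MyoD and at 21.4% (14.9 to 29.2) for Myf5 sites with Myf5.

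The composition of the H4Ac lists moved with these counts. The GC-rich class held 687 H4Ac peaks (2.21% of the list) in GFP cells, 696 (1.89%) with MyoD and 489 (1.53%) with Myf5, so fewer peaks of the class were there to be met in cells with Myf5. When each class was cut to its strongest peaks, the same number in all 3 lists (489 in this class), GC-rich Myf5 sites showed 48 gains and 60 losses with Myf5, a ratio of 0.800 in place of 0.273. Equal lengths draw the gained and lost counts of a class towards each other by construction, so the shift in ratio decides nothing about a cause. In this setting the excess of losses was 4.48 points (-0.306 to 10.0), and the difference in gains was 0.129 points (-0.623 to 1.11). For MyoD sites with MyoD the same step left 38 gains and 45 losses, a ratio of 0.844 against 2.25 in the other classes, and the excess of losses was 10.4 points (4.42 to 17.5). H4Ac cutoffs also rose with GC, from 21 to 30 in GFP cells, from 19 to 26 with MyoD and from 20 to 31 with Myf5. With the highest cutoff of each list applied to all its classes, the differences in gains shrank to 0.0486 points (-1.26 to 1.75) for MyoD and -0.150 points (-0.751 to 0.691) for Myf5, while the differences in losses were 7.41 points (2.58 to 13.3) and 12.96 points (7.92 to 18.4).

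In cells with Myf5, GC-rich H4Ac was lost more often than other H4Ac both at Myf5 peaks and away from them. The difference was smaller in H4Ac classes of equal length, a setting that takes GC-rich peaks from the GFP list and none from the Myf5 list. Of the GC-rich H4Ac peaks of GFP cells, 160 of 404 at a Myf5 peak had no counterpart with Myf5 (39.6%, 34.8 to 44.6), beside 24.3% of all H4Ac peaks at a Myf5 peak. Without a Myf5 peak it was 135 of 283 (47.7%, 41.8 to 53.7), beside 29.8% of all. The excess over the other classes was 15.7 points (11.0 to 20.6) at Myf5 peaks and 18.2 points (12.4 to 24.1) elsewhere, and the gap between them was -2.50 points (-10.1 to 5.09). In H4Ac classes of equal length the excess was 5.03 points (0.238 to 10.4) at Myf5 peaks and 4.00 points (-2.44 to 11.1) elsewhere. With only H4Ac peaks of at least 1.5 times their cutoff it was 13.8 points (7.43 to 20.5) and 26.4 points (17.6 to 34.98), and the gap of -12.6 points (-23.6 to -1.60) excluded 0. With MyoD, 60 of 262 at a MyoD peak were lost (22.9%, 18.0 to 28.5), beside 14.1% of all. Without a MyoD peak it was 112 of 425 (26.4%, 22.2 to 30.8), beside 27.5% of all. Here the excess was 9.05 points (4.31 to 14.6) at MyoD peaks and -1.21 points (-5.22 to 3.22) elsewhere, and the gap between them was 10.3 points (3.60 to 16.9, by a normal approximation). That gap was 5.73 points (-0.962 to 12.4) with 1 H4Ac floor for all classes, 3.65 points (-5.45 to 12.7) with peaks of at least 1.5 times the cutoff and 14.2 points (6.21 to 22.3) in classes of equal length. Against the next lower class alone it was 4.53 points (-2.53 to 11.6). All comparisons of this paragraph were chosen after the values were seen.

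GC-rich MyoD sites that gained H4Ac with MyoD were strong binding sites, as were those of the other classes. For the 30 GC-rich Myf5 sites that gained it with Myf5, no such difference was resolved. The 44 GC-rich MyoD sites that gained it with MyoD had a median MyoD coverage of 106.5 (94 to 157), and all 44 had a Myf5 peak. The 43 that lost it had a median of 49 (42 to 88), the 176 that kept it 61.5 (54 to 70), and the 811 with H4Ac in neither population 54 (51 to 57). Only the gained sites had an interval clear of the other 3 groups. In the other 4 GC classes together, gained MyoD sites had a median of 91 (87 to 95). It was 46 for lost sites, 60 for kept sites and 47 for sites with H4Ac in neither population. At GC-rich Myf5 sites, the gained group had a median Myf5 coverage of 89 (64 to 152) the lost group 69 (58 to 95), the kept group 84 (74 to 105) and the group with H4Ac in neither population 66 (62 to 70). The interval of the gained group overlapped all 3 others. In the other 4 GC classes together, gained Myf5 sites had a median of 82 (76 to 87). That interval was clear of the lost (64, 61 to 68), kept (72, 70 to 74) and neither groups (53, 53 to 54). H4Ac in at least 1 of the 3 populations was found at 273 GC-rich MyoD sites (25.4%), beside 21.6% of the list, and at 395 GC-rich Myf5 sites (21.6%), beside 16.5%. The differences from the other classes were 3.89 points (1.35 to 6.61) and 5.21 points (3.37 to 7.17). At MyoD sites the next lower class had 24.2% (23.2 to 25.3) and the class below that 25.8% (25.1 to 26.5). This share therefore did not set the GC-rich MyoD sites apart from those classes. At Myf5 sites the same classes had 19.4% (18.7 to 20.1) and 19.3% (18.9 to 19.7), both below the GC-rich value. The GC-rich interval (19.7 to 23.5) overlapped both, the second only at its edge. The remaining 801 and 1436 GC-rich sites had no H4Ac peak at all. H4Ac in all 3 populations was found at 138 GC-rich MyoD sites (12.8%), beside 10.9% of the list, and 206 GC-rich Myf5 sites (11.3%), beside 8.67%. For MyoD and Myf5 sites, the next lower class had 12.8% and 10.2%, and the class below that 14.3% and 11.0%.

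H4Ac was also more frequent in the surroundings of the GC-rich sites. In GFP cells an H4Ac peak lay within 5000 bp of 42.9% (39.9 to 45.9) of the GC-rich MyoD sites and 29.1% (28.7 to 29.5) of the others. At the exact centre of the site, 10.2% of GC-rich and 7.36% of other MyoD sites lay inside an H4Ac peak, and at 1000 bp from the centre (mean of both sides) 5.59% and 2.76%. The GC-rich Myf5 sites followed the same course, with 9.34% against 5.77% at the centre and 4.59% against 2.28% at 1000 bp. In cells with Myf5, the centres of MyoD sites differed little, at 7.82% against 7.54%, and the values at 1000 bp were 4.28% and 3.23%.

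**Figure D5:**
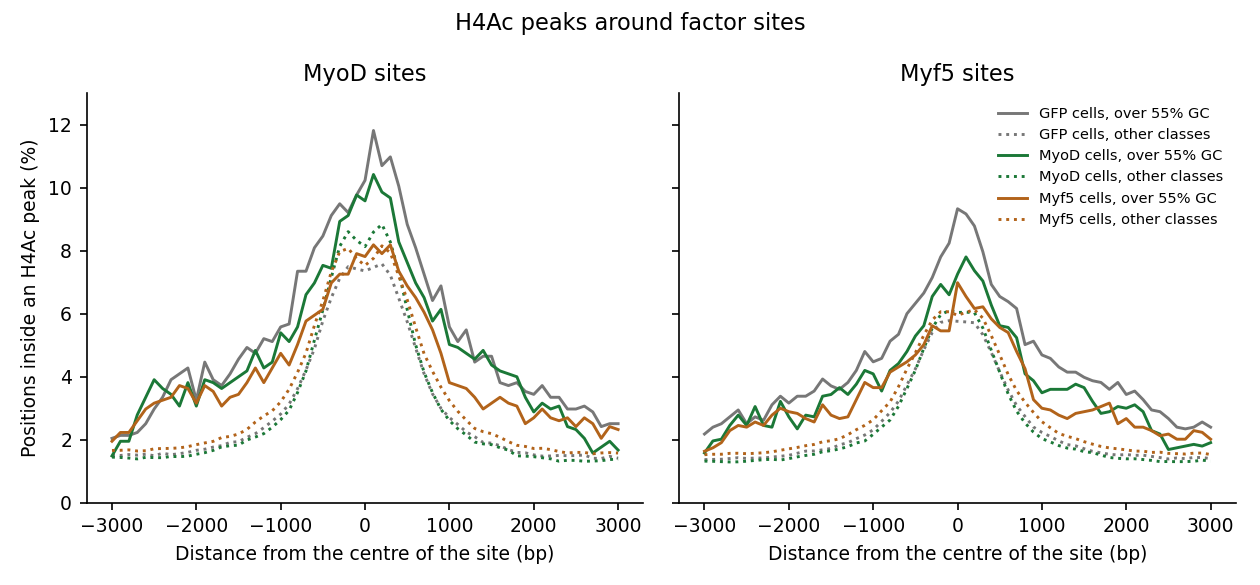
Share of positions inside an H4Ac peak (y axis, percent) by distance from the centre of the site (x axis, bp), around MyoD sites (left) and Myf5 sites (right), for sites over 55% GC (solid) and the other 4 classes (dotted) in cells with GFP, MyoD or Myf5. Around MyoD sites the GFP line of the GC-rich class reaches 11.8% near the centre, and at 1000 bp it is at 5.59% against 2.76% for the other classes.

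Single sites show the range of these patterns. The strongest GC-rich MyoD peak, on chromosome 15 from 75578710 to 75579690 (981 bp), had a coverage of 971 and a Myf5 peak of 1256. It had no H4Ac peak in any of the 3 populations. The second, on chromosome 6 from 83086866 to 83088574 (coverage 809), had H4Ac in all 3, with a maximum coverage of 56 in GFP cells, 92 with MyoD and 73 with Myf5. The third, on chromosome 15 from 76036373 to 76038246 (coverage 753), also had H4Ac in all 3, but its GFP peak of 30 stood exactly at the cutoff of 30. The fourth, on chromosome 5 from 24105950 to 24106739 (coverage 717), had H4Ac with MyoD only, at 40 against a cutoff of 26. The fifth, on chromosome 6 from 29385594 to 29387018 (coverage 708), had H4Ac of 47, 65 and 58 in cells with GFP, MyoD and Myf5. H4Ac coverages of different lists have no common scale, so only the presence of a peak is compared. After the first, the strongest sites with no H4Ac were on chromosome 7 from 28115825 to 28117139 (coverage 632) and on chromosome 10 from 126417308 to 126418567 (coverage 529).

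The strongest GC-rich Myf5 peak lay on chromosome 12 from 112933427 to 112935202, with a coverage of 1800 and a MyoD peak of 797. It had H4Ac in GFP cells (33, cutoff 30) and with MyoD (29, cutoff 24) and none with Myf5. Of the next 4, 3 were the sites already named on chromosomes 15 (with H4Ac in all 3), 5 and 6 (at 83086866), with Myf5 coverages of 1614, 1589 and 1472. The remaining one, on chromosome 8 from 125373820 to 125376480 (coverage 1534, MyoD peak 528), had no H4Ac. The widest members of both lists began close together on chromosome 10. The MyoD peak ran from 79621820 to 79626109 (4290 bp, coverage 449) and the Myf5 peak from 79621862 to 79631827 (9966 bp, coverage 1034), and the latter overlapped 3 MyoD peaks. This MyoD peak had H4Ac with GFP and Myf5 and not with MyoD, and the longer Myf5 peak had it in all 3.

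Gains with MyoD, after the chromosome 5 site above, were strongest on chromosome 5 from 123795305 to 123796989 (MyoD coverage 492, H4Ac 29 at a cutoff of 26) and on chromosome 11 from 53880706 to 53881797 (341, H4Ac 48). The chromosome 11 site also gained H4Ac with Myf5, at 33 against a cutoff of 31. The strongest gains with Myf5 were on chromosome 2 from 118587379 to 118589114 (Myf5 coverage 569), at the same chromosome 11 site (552) and on chromosome 8 from 90839855 to 90841144 (519), and all 3 had H4Ac with MyoD too. Losses included a site on chromosome 1 where the MyoD peak ran from 75501901 to 75503822 (coverage 352) and the Myf5 peak from 75501378 to 75503708 (620). Its H4Ac peak in GFP cells had a coverage of 40 (cutoff 30) and no counterpart with either factor. On chromosome 10 from 79145695 to 79147811 (Myf5 coverage 569) H4Ac was called with GFP (33, cutoff 30) and MyoD (27, cutoff 26) and not with Myf5. Both peaks were near their cutoffs.

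Sites of 1 factor alone were modest in strength. The strongest GC-rich Myf5 peaks without a MyoD peak lay on chromosome 2 from 32073861 to 32074781 (coverage 151), chromosome 19 from 6453183 to 6454015 (141) and chromosome 11 from 119906647 to 119907921 (135), and none had H4Ac. The strongest GC-rich MyoD peak without a Myf5 peak, on chromosome 15 from 61817978 to 61819430 (coverage 119), overlapped a peak of the mock lists. The next, on chromosome 7 from 28118347 to 28118697 and chromosome 1 from 13362263 to 13362750, had coverages of 52 and 42. The chromosome 15 site was the only GC-rich MyoD peak at a mock peak (1 of 1074, 0.0931%, beside 0.118% of the list). No GC-rich Myf5 peak was at one (0 of 1831, up to 0.201% by the exact interval, beside 0.0096% of the list), so neither count stands apart from its list.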

How the data were processed

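Per the submitters' processing notes, the tools were CASAVA 1.8.2 and BWA 0.7.5, and 2 builds, mm9 and hg19, are listed with no role. The lists reach past the last GRCm38 gene of chromosome 1 and were read as mm9. The peak caller, the joining of the 2 factor replicates and the stretch over which GC was read were not stated in the labels or headers used here. Per the file headers, the authors' lists give each peak's maximum coverage (signal), as whole numbers with no stated scaling, a coverage cutoff per GC class, a p-value and a control coverage. The deposited peak p-values reached at most 8.56e-06 for MyoD and 8.10e-06 for Myf5. The deposited control p-values reach 1.12 and were treated as a score. Sequencing depth is unknown. In the H4Ac list of GFP cells 1 control coverage was a placeholder.

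Samples were grouped by antibody and transgene: 7 lists, and 3 inputs left out of every comparison. Overlap means at least 1 shared bp. Shares have Clopper-Pearson intervals, their differences Newcombe intervals and medians order-statistic intervals, all at 95% confidence. A difference was called when its interval excluded 0. For medians, it was called when the intervals of both groups did not overlap, and its printed interval runs between their nearest and farthest bounds. Peaks are not replicates, so no p-value was computed. Chromosomes were counted with at least 10 GC-rich sites. Coverage was ranked within a list only. The work used matplotlib 3.10.9, scipy 1.17.1, pandas 2.3.3 and numpy 2.4.6 under Python 3.11.15, and the overlap and interval code was tested on simulated data. Named positions are the 5 strongest GC-rich peaks of each list, the 3 strongest of each H4Ac pattern and of those without the other factor, and the widest. Left out above were a MyoD peak on chromosome 18 (coverage 173) and 2 Myf5 peaks. These lay on chromosome 15 from 88693435 (coverage 1422, H4Ac in all 3 populations) and on chromosome 7 from 17533123 (coverage 1019, no H4Ac). The members and comparisons were chosen with earlier results of these data known. Alternatives were other overlap rules, coverage floors, reweighting by width or strength, other GC contrasts, and leaving out the X chromosome or peaks at mock peaks.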

Additional observations from a re-analysis of the deposited data

How the results depend on the processing

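Of 200 values of the 18 GC-rich minus other differences under alternatives, 142 kept their direction and side of 0, 32 no longer excluded 0, 7 newly did and 19 changed sign; causes were not tested unless a setting's construction shows them. H4Ac in GFP cells was higher at the GC-rich sites of both lists in all 14 alternatives. The interval excluded 0 in all 14 for Myf5 sites (2.82 to 8.31 percentage points) and in 13 of 14 for MyoD sites (1.91 to 8.53). The excess of losses with the list's own factor excluded 0 in 13 of 14 for Myf5 and 11 of 14 for MyoD, and kept its direction in the rest. All values below are percentage points, or percentile points for ranks. Against the next lower class alone, differences were -0.101 (MyoD sites shared), 1.91, -0.545 (H4Ac at MyoD sites with GFP and Myf5), -0.700 and 4.52 (gained and lost with MyoD), 1.38, 0.634 (H4Ac at Myf5 sites with MyoD and Myf5) and -0.344 (gained with Myf5). Median widths differed by 18 and 23 bp, MyoD coverage rank by 3.12, and ranks over cutoff by -1.06 and -0.924. For the 2 highest classes against the other 3, H4Ac at MyoD sites differed by 2.25 (MyoD) and 1.03 (Myf5), and ranks over cutoff by 2.95 and 4.05.

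With 1 factor coverage floor, MyoD sharing differed by 0.461, H4Ac at Myf5 sites with Myf5 by 1.06, and ranks over cutoff by -1.66 and -2.89. With 1 H4Ac floor, H4Ac at MyoD sites differed by 5.58 (MyoD) and 3.34 (Myf5), and gains by 0.0486 (MyoD) and -0.150 (Myf5). In H4Ac classes of equal length, chosen after seeing the data, H4Ac at MyoD sites with MyoD differed by -0.497, gains by -1.18 (MyoD) and 0.129 (Myf5), and Myf5 losses by 4.48. With H4Ac peaks of at least 1.5 times the cutoff, H4Ac at MyoD sites differed by 1.91 (MyoD) and -0.00675 (Myf5), gains by -0.154 and -0.445, MyoD losses by 5.03 and H4Ac at Myf5 sites with Myf5 by 0.395.

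With the site centre inside the H4Ac peak, gains differed by -0.151 and -0.504, MyoD losses by 5.08 and H4Ac at Myf5 sites with Myf5 by 1.04. With windows of 100 bp either side of the centre, MyoD gains differed by -0.473, H4Ac at Myf5 sites by 1.28 (MyoD) and -0.166 (Myf5), and at MyoD sites with Myf5 by -0.225. With a 50% overlap, MyoD gains differed by -1.43. Reweighted to equal width, MyoD and Myf5 sharing differed by 0.684 and 0.963, H4Ac at MyoD sites by -0.386 (MyoD) and -1.21 (Myf5), and at Myf5 sites by -0.720 and -1.80. Reweighted to equal coverage rank, sharing differed by 0.343 and -0.0847, and H4Ac with Myf5 by -0.351 at MyoD and 0.701 at Myf5 sites. In the stronger 50% of each list, these were 0.238 (MyoD sharing), -0.376 and 1.55. Without the X chromosome, H4Ac at Myf5 sites with Myf5 differed by 1.49. No paired analysis was possible because each factor list joins its 2 replicates and the other groups have 1 list each. The depth of the libraries is unknown, and gains at GC-rich sites rest on 44 and 30 sites.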

Other observations

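The mock lists held few GC-rich peaks: 11 of 942 (1.17%, 0.584 to 2.08) for the mock ChIP with the MyoD antibody and 13 of 1359 (0.957%, 0.510 to 1.63) with the Myf5 antibody, against 2.39% and 1.95% in the factor lists. GC-rich H4Ac peaks met factor peaks more often than those of the other 4 classes together in all 3 populations, and the next lower class did so nearly as often. In GFP cells, 38.1% (34.5 to 41.9) of them overlapped a MyoD peak and 58.8% (55.02 to 62.5) a Myf5 peak, against 27.2% and 46.8% of the other classes and 34.8% (33.3 to 36.2) and 57.0% (55.5 to 58.6) of the next lower class. With MyoD the shares were 39.4% and 58.6%, against 31.7% and 50.1% of the other classes and 37.2% and 58.0% of the next lower class. With Myf5 they were 39.7% and 60.7%, against 27.0% and 45.3%, and 36.9% and 57.6%. Each interval of the GC-rich class overlapped that of the next lower class. New H4Ac peaks were scarcer in the GC-rich class also without a factor peak. With MyoD, 18.7% (15.1 to 22.8) of the GC-rich H4Ac peaks off the MyoD peaks had no GFP counterpart. It was 28.7% in the other classes and 22.9% (21.4 to 24.5) in the next lower class. With Myf5 and off its peaks it was 19.3% (13.9 to 25.6), against 38.0% and 22.1% (20.0 to 24.4). Both GC-rich intervals overlapped those of the next lower class. With Myf5 the difference from the other classes was -18.7 points off Myf5 peaks and -9.84 at them, a gap of 8.87 (1.89 to 15.9). With MyoD it was -9.93 and -10.4 points.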
